A study of Mus musculus with 6 samples.

Results

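GABA-A receptors are chloride channels of 5 subunits that open when GABA binds, and the subunits present set where on the cell a receptor sits and how it responds. The genes described here are the 7 GABA-A receptor subunit genes Gabra2, Gabra3, Gabra4, Gabra5, Gabra6, Gabrb2 and Gabrd, taken as a list of names out of the 55487 genes counted. In the cerebellum, the alpha6 and delta subunits are hallmarks of mature granule cells, where they join beta subunits in receptors outside synapses that carry a steady inhibitory current. The alpha2 and gamma1 subunits are known there mainly from Bergmann glia, while alpha3 and alpha5 are better known from brainstem and forebrain neurons. Gabra2 is a gene whose level is known to differ between laboratory mouse strains, with a lower level in C57BL/6J.

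The libraries came from the cerebella of male mice at postnatal day 14, 3 homozygous for the knockout allele Galnt17tm1.1(KOMP)Vlcg (KO, labelled Wbscr17KOKO) and 3 wild types of the B6C3 stock (WT). Galnt17, formerly Wbscr17, encodes an enzyme of the family that starts mucin-type O-glycosylation. Per the labels, the allele was introduced by fertilizing C57BL/6J females and was then bred to C57BL/6J by C3H/He hybrids, because homozygous pups were not born alive on C57BL/6, so both groups have C57BL/6J and C3H/He ancestry. Whether the animals were littermates, and which strain's allele each carried at a subunit gene, is not stated in the labels. The comparison asks how subunit expression in the KO cerebellum differed from that of the WT cerebellum.

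Libraries held 17111611 to 29840046 counts in genes. Galnt17 had 72, 80 and 63 counts in KO replicates 1 to 3 and 1119, 729 and 963 counts in WT replicates 1 to 3, as the labels give the groups. The test over 18237 genes called 143 (0.784%) as higher in KO and 159 (0.872%) as lower. Read shares from the alignment also separated the groups: 13.8% to 17.2% of reads were unmapped in KO and 6.52% to 10.03% in WT, 3.72% to 3.90% mapped to several places in KO and 4.09% to 4.29% in WT, and 3.95% to 4.07% were ambiguous between genes in KO and 4.35% to 4.44% in WT. Their part in the results was not tested. A pair of WT libraries stood apart by gene levels. In WT replicate 1, genes with low GC content had higher levels: across 10677 genes, the Spearman correlation of transcript GC content with the library's deviation from the mean was -0.345, against -0.073 to 0.184 in the other libraries. In WT replicate 3, most listed markers of brainstem and midbrain neurons were raised. Slc6a4, the serotonin transporter gene, had 2, 3 and 2 counts in KO replicates 1 to 3, 2 and 0 counts in WT replicates 1 and 2, and 159 counts in WT replicate 3. For the 7 listed subunit genes, results that rest on either library are given with and without it, and for other genes only in part.

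The promoters of 3 genes are shown because these genes had 3 different patterns in the libraries: Gabra2 with KO and WT values apart, Gabra5 high in a single library, and Gabra6 the most abundant and close between the groups. Each is the 250 bases before the RefSeq start on the gene's strand (GRCm38.p6, minus strand for all 3), at chr5:71095850-71096099 for Gabra2, chr7:57510060-57510309 for Gabra5 and chr11:42321073-42321322 for Gabra6. Capitals mark matches on either strand to TATAAA (the TATA box), GGGCGG (the GC box) or TTGGC (the core bound by NFI factors, which are known to act on Gabra6), and no matches overlapped in these windows.
Gabra2: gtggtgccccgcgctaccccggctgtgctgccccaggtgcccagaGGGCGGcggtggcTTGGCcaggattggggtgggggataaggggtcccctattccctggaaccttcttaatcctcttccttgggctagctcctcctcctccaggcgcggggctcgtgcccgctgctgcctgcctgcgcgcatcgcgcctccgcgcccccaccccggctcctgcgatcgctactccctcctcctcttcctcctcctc
Gabra5: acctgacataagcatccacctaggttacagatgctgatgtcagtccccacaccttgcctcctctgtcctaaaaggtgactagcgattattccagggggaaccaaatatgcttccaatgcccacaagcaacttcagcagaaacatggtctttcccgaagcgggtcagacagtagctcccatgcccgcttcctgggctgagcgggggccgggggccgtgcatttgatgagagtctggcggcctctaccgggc
Gabra6: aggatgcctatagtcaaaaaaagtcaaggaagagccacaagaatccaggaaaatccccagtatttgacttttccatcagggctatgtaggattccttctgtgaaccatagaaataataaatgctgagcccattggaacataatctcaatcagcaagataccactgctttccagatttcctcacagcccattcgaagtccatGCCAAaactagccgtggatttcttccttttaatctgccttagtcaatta
The Gabra2 window was 70% GC with 18 CG dinucleotides, the Gabra5 window 56.4% GC with 9, and the Gabra6 window 40.8% GC with 2, where the median over 32841 RefSeq promoter windows of that length was 52.4% GC and 6 CG dinucleotides. GGGCGG was found in the Gabra2 window alone of the 3 and in 32.7% of all windows. TTGGC was found in the Gabra2 and Gabra6 windows and in 41.5% of all windows, and TATAAA in none of the 3 and in 12.4% of all windows.

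In edgeR's quasi-likelihood test 0 of the 7 subunit genes passed, where 1.66% of all genes tested did. All 7 passed the filter on low counts. By edgeR 1 of them, Gabra2, had an unadjusted p under 0.05, which was so for 17.6% of all genes, and 0 of them passed in DESeq2 or limma-voom, which called 3.08% and 1.71% of all genes. KO and WT values did not overlap for 1 of the 7, again Gabra2, against 23.7% of all genes. The median log2 fold change of the 7 was -0.09, against -0.01 over all genes tested. Fold changes here are KO over WT, and adjusted p values are those of edgeR, by the method of Benjamini and Hochberg over all genes tested, unless another tool is named.

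**Figure D1:**
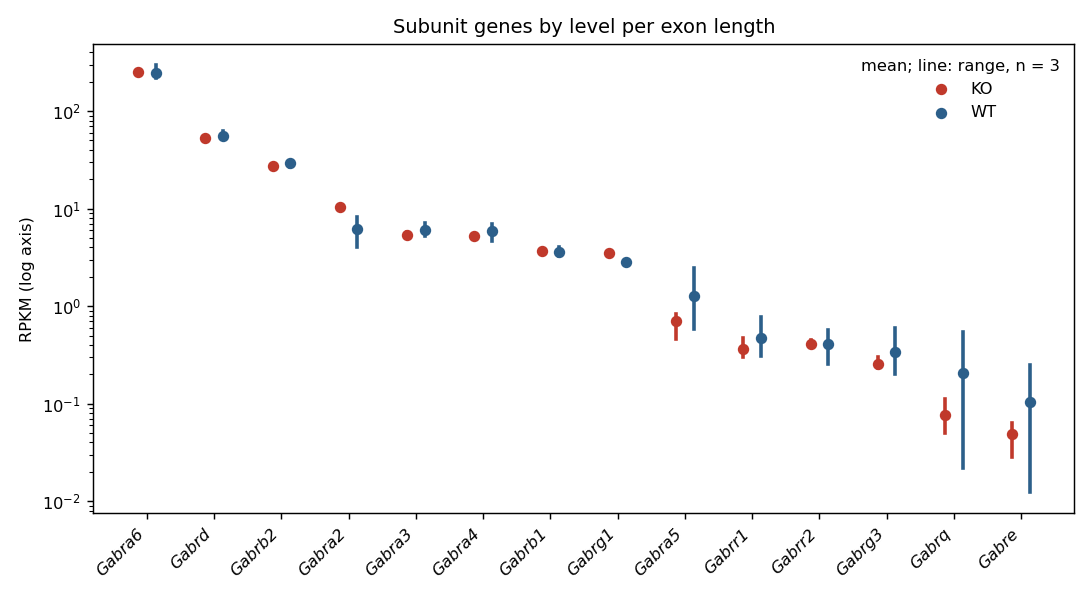
Level of subunit genes in RPKM (counts scaled to exon length and library size, log axis), with points for the mean and lines for the range of 3 KO and 3 WT libraries. Gabra6, Gabrd and Gabrb2 lead in that order in both groups, and Gabrp and Gabrr3, which had libraries at 0, are left out.

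Per exon length, the granule cell subunit genes led in both groups. Gabra6 averaged 252.4 ± 13.5 RPKM in KO and 247.7 ± 41.3 RPKM in WT (SD, n = 3 each), Gabrd 53.2 ± 1.75 in KO and 55.6 ± 5.37 in WT, and Gabrb2 27.5 ± 0.436 in KO and 29.2 ± 2.14 in WT. The ranges of these 3 genes did not overlap each other in either group. Gabra2 came next, with 10.3 ± 0.13 in KO and 6.24 ± 2.11 in WT. Its WT range overlapped that of Gabra3, which averaged 5.39 ± 0.294 in KO and 5.98 ± 1.02 in WT, and its KO range did not. Gabra3 and Gabra4 (5.21 ± 0.317 in KO and 5.87 ± 1.10 in WT) overlapped in both groups, and Gabra5 was lowest, at 0.702 ± 0.208 in KO and 1.27 ± 1.01 in WT. Among the summed levels per length of the 5 alpha genes listed, Gabra6 made up 91.7%, 91.9% and 92.7% in KO replicates 1 to 3 and 93.4%, 92.4% and 92.3% in WT replicates 1 to 3. The Gabra2 share was 3.96%, 3.81% and 3.52% in KO and 2.59%, 2.62% and 1.69% in WT, so that it was higher in each KO library than in any WT library. These are shares of transcript levels, not of receptors. As the libraries are bulk, fewer cells of a type and less RNA per cell cannot be told apart.

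**Figure D2:**
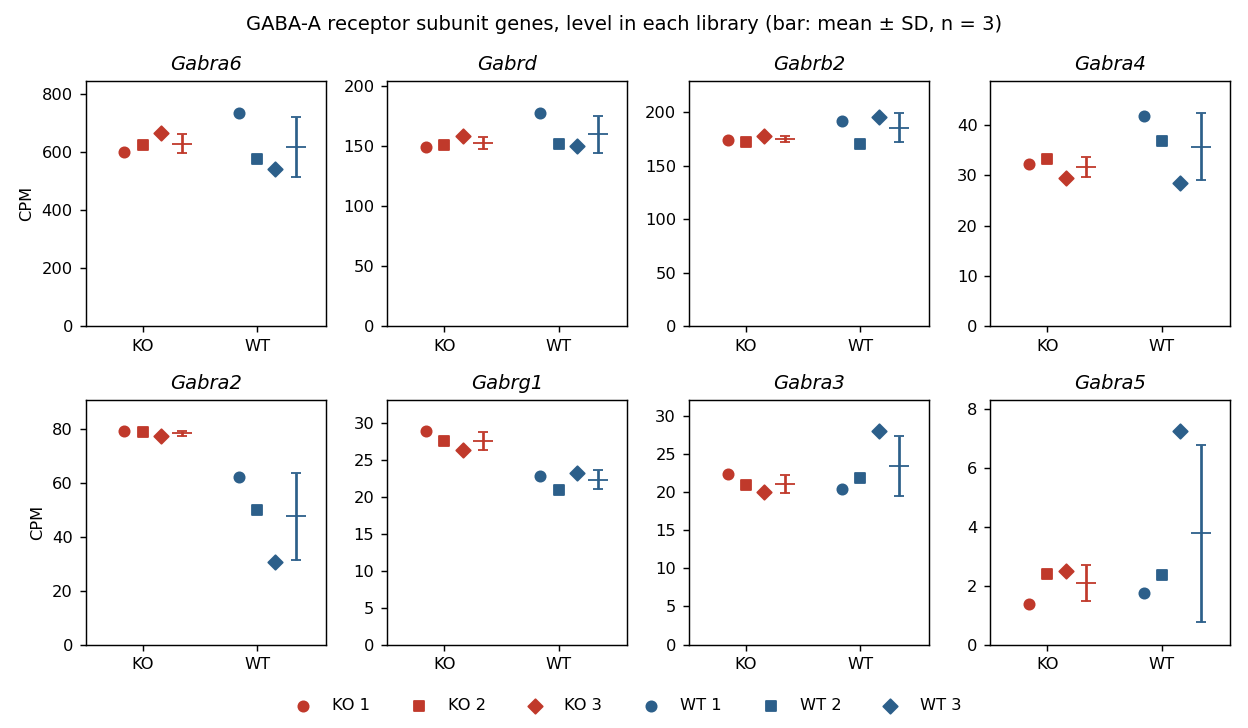
CPM of the 7 listed subunit genes and Gabrg1 in each KO and WT library, with bars for the mean ± SD (n = 3). Gabra2 lies between 77.4 and 79.2 CPM in KO and between 30.5 and 62.5 CPM in WT, and the values of the other 6 listed genes overlap.

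Gabra6, the alpha6 gene of granule cells (ENSMUSG00000020428, chromosome 11, 42306437 to 42321072, GRCm38), was at 598, 622 and 664.6 CPM in the KO libraries and 733.6, 573.9 and 542 CPM in the WT libraries. The KO values lay inside the WT range, with the highest value of all in WT replicate 1 and the lowest in WT replicate 3. The fold change was 1.02, with a 95% interval of 0.869 to 1.19 (log2 fold change 0.03, SE 0.10, adjusted p = 0.917). Its transcript is 39.7% GC, against a median of 49.6% over genes, and the log2 fold change without WT replicate 1 was 0.17 (adjusted p = 0.108).

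Gabrd, which encodes the delta subunit that pairs with alpha6 in these receptors (ENSMUSG00000029054, chromosome 4, 155384980 to 155398112), was at 149.3, 150.8 and 158.6 CPM in KO and 177.7, 151.6 and 150.3 CPM in WT. WT replicate 1 was again the highest library, and the other 5 lay within 149.3 to 158.6 CPM. The Gabrd transcript is 54.7% GC, above the median of 49.6% over genes. The fold change was 0.956, with a 95% interval of 0.858 to 1.06 (adjusted p = 0.663). Gabrb2, for the beta2 subunit (ENSMUSG00000007653, chromosome 11, 42419757 to 42629028), was at 174, 172.2 and 177.7 CPM in KO and 191.5, 170.1 and 195.4 CPM in WT. A pair of WT libraries lay above every KO library and WT replicate 2 below them, and the fold change was 0.94 with a 95% interval of 0.855 to 1.03 (adjusted p = 0.477). Its log2 fold change was -0.09 with all libraries, -0.07 without WT replicate 1 and -0.05 without WT replicate 3. The intervals of these 3 genes thus lie between fold changes of 0.855 and about 1.19.

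Other markers of mature granule cells held 0 calls too. Of 12 listed (Cbln1, Cbln3, Slc17a7, Grin2c, Fat2, Etv1, Kcnk9, Grm4, Neurod1, Chn2, Rbfox3 and Kcnd2), 0 passed in edgeR, DESeq2 or limma-voom, 0 had an unadjusted p under 0.05 in edgeR, and the median log2 fold change was -0.01. Their summed level was 6130, 6004 and 6298 CPM in KO and 6128, 6379 and 5936 CPM in WT, with overlapping groups. The 3 with the smallest p were Rbfox3, the neuronal splicing factor gene (adjusted p = 0.33), Chn2, for a Rac-regulating chimaerin (adjusted p = 0.402), and Kcnk9, for a leak potassium channel (adjusted p = 0.451). Without WT replicate 1, 1 of the 12 was higher and 1 lower, in a fit that called 10.5% of all genes.

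Gabra2, the alpha2 gene (ENSMUSG00000000560, chromosome 5, 70957597 to 71095849), was the only listed gene whose groups did not overlap. It was at 79.2, 79 and 77.4 CPM in KO replicates 1 to 3 (2364, 1839 and 1559 counts) and at 62.5, 50 and 30.5 CPM in WT replicates 1 to 3 (1508, 852 and 628 counts). The KO libraries lay within 1.81 CPM of each other, while the WT libraries differed among themselves by 31.9 CPM. The fold change was 1.64, with a 95% interval of 1.24 to 2.19 (log2 fold change 0.72, SE 0.19, unadjusted p = 0.00298), and it did not pass (adjusted p = 0.0901).

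The spread of Gabra2 among WT animals was among the widest measured. Its SD of log2 CPM was 0.02 in KO and 0.53 in WT, where the medians over 10687 genes with a mean of at least 10 CPM were 0.05 in KO and 0.10 in WT. Of those genes, 51 (0.477%) had a larger WT SD, and 90.5% had a larger KO SD. Its call depended on single animals: the adjusted p was 0.00426 without WT replicate 1, in a fit that called 10.5% of all genes, and 0.0157 without WT replicate 3, in a fit that called 1.82%. Its log2 fold change was then 0.98 and 0.48, and without any 1 of the other 4 libraries the adjusted p was 0.212 to 0.291. The Gabra2 transcript is 38.4% GC, and the lowest Gabra2 value was in the library with raised brainstem markers. The part of GC content, brainstem RNA or strain alleles in these values was not tested.

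**Figure D3:**
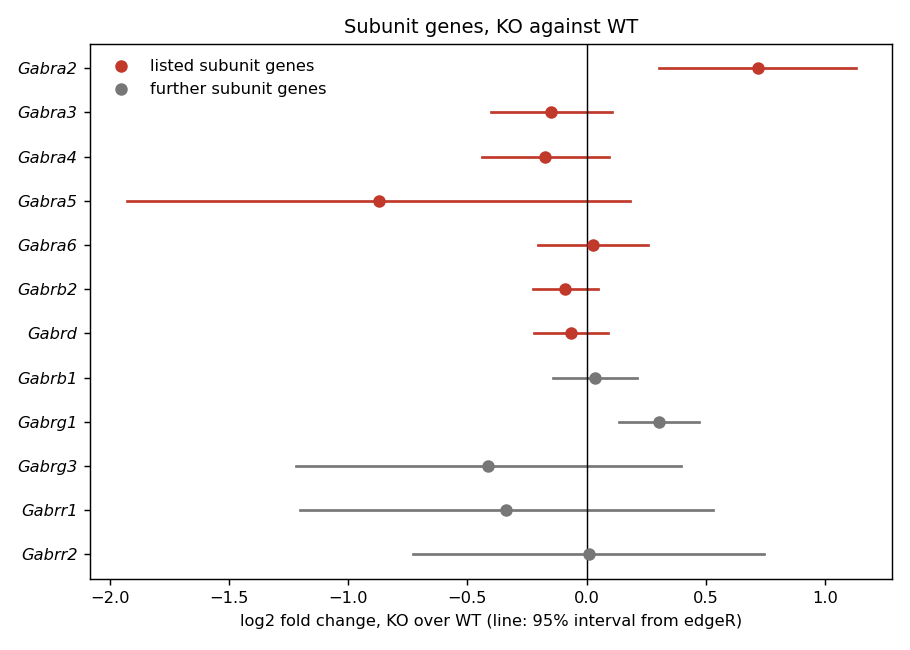
Log2 fold change, KO over WT, of the 7 listed and 5 further tested subunit genes, with 95% intervals from edgeR. The intervals of Gabra2 (0.30 to 1.13) and Gabrg1 (0.13 to 0.47) lie above 0, and neither gene passed after adjustment over all genes.

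Gabrg1, for the gamma1 subunit known with alpha2 from Bergmann glia, lies 115 kb from Gabra2 and also had higher values in each KO library. It was at 28.8, 27.5 and 26.3 CPM in KO and 22.8, 20.9 and 23.2 CPM in WT, 1.23-fold higher with a 95% interval of 1.1 to 1.39 (log2 fold change 0.30, SE 0.08), and did not pass (adjusted p = 0.084). Without WT replicate 1 it passed, with a log2 fold change of 0.32 and an adjusted p of 0.0373 in edgeR, and without any 1 of the other 5 libraries the adjusted p was 0.0712 to 0.293. Unlike Gabra2 it varied little among WT animals, with an SD of log2 CPM of 0.07 in KO and 0.08 in WT. Of 8 markers of Bergmann glia and astrocytes, 0 passed in edgeR, DESeq2 or limma-voom, 1 was lower at an unadjusted p under 0.05 in edgeR, and the median log2 fold change was 0.02. Their summed level was 3832, 3874 and 3872 CPM in KO and 3962, 3589 and 3915 CPM in WT, with overlapping groups. The 3 with the smallest p were Aldh1l1, an astrocyte enzyme gene (adjusted p = 0.271), the homeodomain gene Hopx (adjusted p = 0.323) and the water channel gene Aqp4 (adjusted p = 0.404).

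Gabra2 and Gabrg1 belong to a cluster of subunit genes on chromosome 5, the chromosome that also holds Galnt17, 59.8 Mb away. Of 21 other protein-coding genes within 2 Mb of Gabra2, 12 were tested, and 0 passed in edgeR, DESeq2 or limma-voom. In edgeR 1 of the 12, Gabrg1, had an unadjusted p under 0.05, against 17.6% of all genes tested. Groups did not overlap for 2, Gabrg1 and Nfxl1 (28.1 ± 0.77 CPM in KO and 29.3 ± 0.332 CPM in WT, SD, n = 3 each), against 23.7% of all genes tested. Apart from Gabrg1, log2 fold changes ran between -0.23 and 0.33, with adjusted p values of at least 0.379. On the far side of Gabra2 lie Gabra4 and Gabrb1, whose starts overlap head to head. Gabrb1, for the beta1 subunit, was at 51.2 ± 2.32 CPM in KO and 49.8 ± 5.49 CPM in WT (SD, n = 3 each, adjusted p = 0.854). Gabra4, the alpha4 gene (ENSMUSG00000029211, chromosome 5, 71569749 to 71658308), which forms delta-containing receptors in forebrain neurons, was at 32.4, 33.2 and 29.5 CPM in KO and 41.8, 36.8 and 28.5 CPM in WT. Its WT values spanned the KO values on both sides, as with Gabra6, and WT replicate 1 was the highest and WT replicate 3 the lowest. The fold change was 0.887, with a 95% interval of 0.738 to 1.07 (log2 fold change -0.17, adjusted p = 0.482). The size rested on those 2 libraries: leaving out WT replicate 1 gave a log2 fold change of -0.04 (adjusted p = 0.844), and leaving out WT replicate 3 gave -0.31 (adjusted p = 0.0827). Reads in the 46 exonic bases that Gabra4 shares with Gabrb1 on the other strand cannot be assigned without strand.

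**Figure D4:**
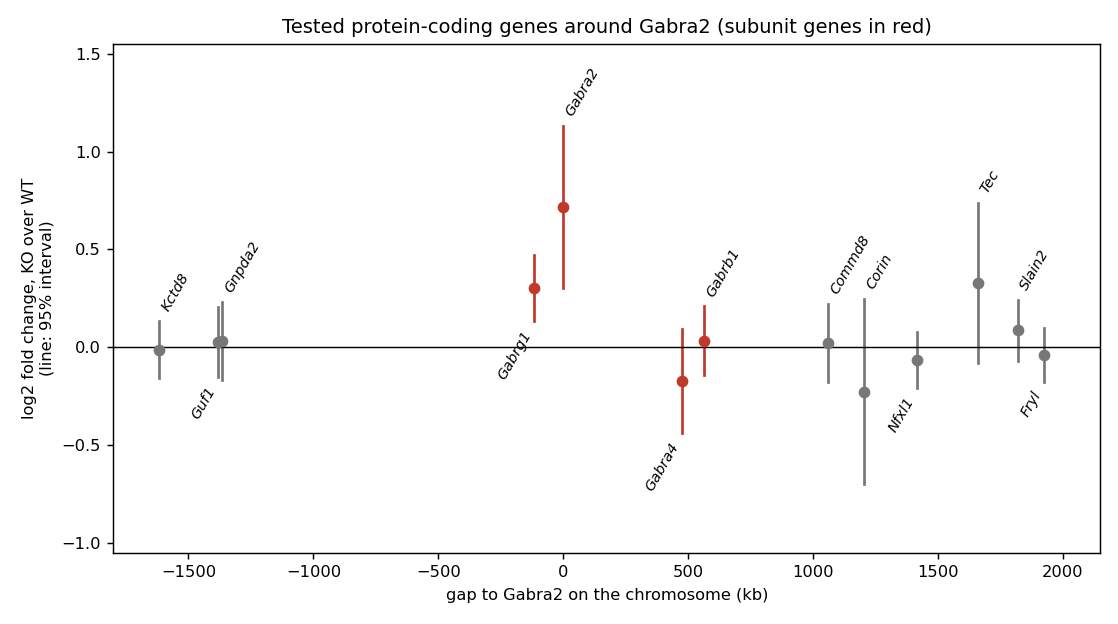
Log2 fold change, KO over WT, with 95% intervals for Gabra2 and the 12 tested protein-coding genes around it, by the gap to Gabra2 in kb. Gabra2 (0.72) and Gabrg1 (0.30), the nearest tested gene, have intervals above 0, and those of the other 11 genes include 0.

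Gabra3 and Gabra5 had their highest value in the same WT library. Gabra3, the alpha3 gene (ENSMUSG00000031343, chromosome X, 72432681 to 72656848), typical of monoamine neurons among others, was at 22.4, 21 and 20.1 CPM in KO and 20.5, 21.9 and 28 CPM in WT. Without WT replicate 3 the groups had nearly the same mean, with a log2 fold change of 0.00, against -0.15 with all libraries (adjusted p = 0.53). Gabra5, the alpha5 gene best known from hippocampus (ENSMUSG00000055078, chromosome 7, 57407672 to 57510059), had 41, 56 and 50 counts in KO and 42, 40 and 149 counts in WT. That was 1.37, 2.41 and 2.48 CPM in KO and 1.74, 2.35 and 7.24 CPM in WT, with 5 of the libraries between 1.37 and 2.48 CPM. Its log2 fold change was -0.87 (SE 0.48, adjusted p = 0.367) with all libraries and 0.03 without WT replicate 3. Gabra5 overlaps genes on the opposite strand, including 148 bases of exon shared with the antisense gene Gm9962, whose reads cannot be told apart here.

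**Figure D5:**
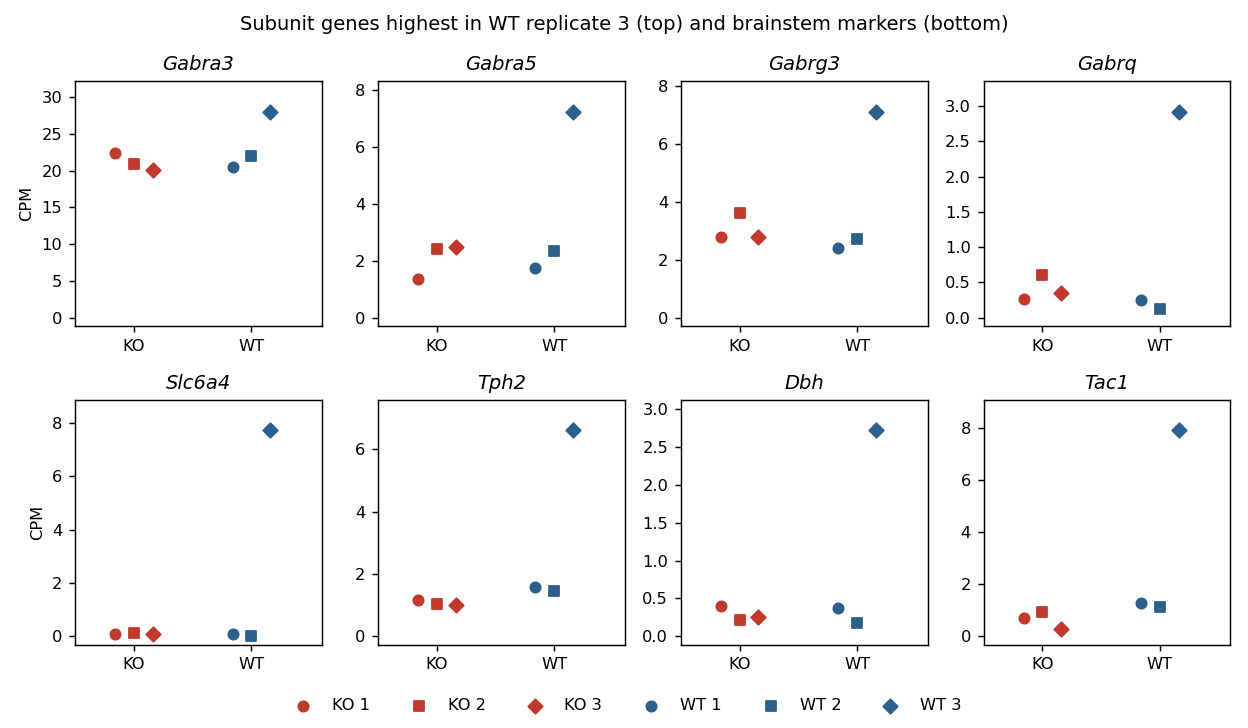
CPM in each KO and WT library of 4 subunit genes (top) and 4 markers of brainstem monoamine and peptide neurons (bottom). WT replicate 3 is the highest library for all 8 genes, for example 7.24 CPM for Gabra5 and 7.73 CPM for Slc6a4.

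Further subunit genes followed Gabra5 in that library. Gabrq, for the theta subunit of monoamine nuclei, had 8, 14 and 7 counts in KO and 6, 2 and 60 counts in WT. Gabre, for the epsilon subunit, had 4, 6 and 6 counts in KO and 6, 1 and 24 counts in WT. Gabrg3, for gamma3, was at 2.78, 3.61 and 2.78 CPM in KO and 2.4, 2.7 and 7.1 CPM in WT. WT replicate 3 lay above the other 5 libraries for each of these 3 genes. By CPM, WT replicate 3 was the highest of the 6 libraries for 3 of the 7 listed subunit genes (Gabra3, Gabra5 and Gabrb2), for 4 of 9 further subunit genes (Gabrg3, Gabre, Gabrq and the rho1 gene Gabrr1) and for 8 of 10 listed brainstem and midbrain markers. The 8 include Hoxb3, where WT replicates 1 and 3 had the same count. They also include Th, at 4.76 CPM in WT replicate 3 and 4.72 CPM in KO replicate 3. Gabrb2 was close as well, at 195.4 CPM in WT replicate 3 and 191.5 CPM in WT replicate 1. Hoxb5 was highest in WT replicate 1 and Nts in WT replicate 2. The share of all genes highest in WT replicate 3 was not counted, so whether these counts exceed it is not known.

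The summed level of those 10 markers was 72.6, 70.4 and 65.2 CPM in KO and 63.9, 83.7 and 141.6 CPM in WT, so that WT replicate 3 lay above every other library. Tph2, for the serotonin-making hydroxylase, was at 1.17, 1.03 and 0.993 CPM in KO and 1.57, 1.47 and 6.61 CPM in WT, and Dbh, the noradrenaline synthesis gene, had 12, 5 and 5 counts in KO and 9, 3 and 56 counts in WT. Hoxb3, a gene of the caudal brainstem, had 0 counts in each KO library and 2, 1 and 2 counts in WT. The related gene Hoxb5 had 0, 1 and 1 counts in KO and 6, 1 and 3 counts in WT. Of the 10 markers, 5 were tested and 0 passed in edgeR, with 2 lower at an unadjusted p under 0.05, while 1 passed as lower in DESeq2 and 0 in limma-voom. The 3 with the smallest p were Tac1, a peptide precursor gene (adjusted p = 0.139), Tph2 (adjusted p = 0.167) and Slc17a6, for a vesicular glutamate transporter (adjusted p = 0.307). Forebrain markers were also summed highest there, at 104.6, 111.8 and 104.5 CPM in KO and 92.9, 92 and 144 CPM in WT. Of 6 tested, 0 passed in edgeR, DESeq2 or limma-voom and 0 had an unadjusted p under 0.05 in edgeR, and those with the smallest p included Drd1 and Tbr1 (adjusted p = 0.462 and 0.487). The part of brainstem or forebrain RNA in the levels of Gabra3, Gabra5, Gabre, Gabrg3 and Gabrq was not tested.

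Of the 9 further subunit genes, 5 were tested and 0 passed in edgeR, DESeq2 or limma-voom, with 1 higher (Gabrg1) at an unadjusted p under 0.05 in edgeR, and the median log2 fold change was 0.01. Those with the smallest p were Gabrg1, Gabrg3 (adjusted p = 0.589) and Gabrr1 (adjusted p = 0.687). The log2 fold change of Gabrg3 was -0.41 with all libraries and 0.27 when WT replicate 3 was left out (adjusted p = 0.568). Gabrp had 0, 0 and 3 counts in KO and 0, 1 and 0 counts in WT, and Gabrr3 had 0 counts in each library, which by counting error alone allows up to 3.

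Genes that place, assemble and move GABA-A receptors held no call in edgeR either. Of 24 listed and tested, 0 passed, with 2 higher and 3 lower at a p under 0.05 before adjustment, and the median log2 fold change was -0.05. In DESeq2 1 was higher and 1 lower, and in limma-voom 0 passed. Insyn1, which encodes a partner of gephyrin at inhibitory synapses, was at 167.4 CPM in KO and 139.6 CPM in WT (adjusted p = 0.108 in edgeR and 0.0333 in DESeq2). Plcl2, for a phospholipase-like scaffold of GABA-A receptor traffic, was at 42.5 CPM in KO and 52.5 CPM in WT (adjusted p = 0.124), and Nsf, for a vesicle fusion ATPase, at 287.1 CPM in KO and 361.2 CPM in WT (adjusted p = 0.131 in edgeR and 0.0198 in DESeq2). Without WT replicate 3, Insyn1 passed (log2 fold change 0.35, adjusted p = 0.0158). Nsf passed when WT replicate 1 was left out (log2 fold change -0.44, adjusted p = 0.0072), while leaving out WT replicate 3 gave a log2 fold change of -0.19 (adjusted p = 0.187), against -0.33 with all libraries.

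The genes of GABA supply and of the other GABA receptor held 0 calls in edgeR. Of 8 genes of GABA synthesis, transport and breakdown, 0 passed in edgeR, DESeq2 or limma-voom, with 1 higher and 1 lower at an edgeR p under 0.05 before adjustment and a median log2 fold change of 0.01. The lower one, Slc6a11, the GABA transporter gene of astrocytes, was at 78.2, 79.1 and 69.3 CPM in KO and 86.5, 102.8 and 197.9 CPM in WT (log2 fold change -0.77, adjusted p = 0.143), with the highest value again in WT replicate 3. Its log2 fold change was -0.32 without WT replicate 3 (adjusted p = 0.0866) and -0.998 when WT replicate 1 was left out, where it passed (adjusted p = 0.0138). The higher one, Slc6a13, a transporter gene of meninges and blood vessels, was at 16.9 CPM in KO and 13.6 CPM in WT (adjusted p = 0.222) and passed when WT replicate 1 was left out (adjusted p = 0.0489), and the third by p was Aldh5a1, which clears GABA breakdown products (adjusted p = 0.364). Of 5 genes of the GABA-B receptor complex, 0 passed in edgeR, with 1 higher at an unadjusted p under 0.05 and a median of -0.01. That gene was Kctd12, an auxiliary subunit that speeds desensitization, at 354.6, 343.5 and 342 CPM in KO and 307.8, 281 and 277.6 CPM in WT, with groups that did not overlap. It was 1.2-fold higher (adjusted p = 0.0555), and it passed in DESeq2 (adjusted p = 0.00213), in limma-voom (adjusted p = 0.046) and in edgeR when WT replicate 1 was left out (adjusted p = 0.00504). Without any 1 of the other 5 libraries its adjusted p in edgeR was 0.0801 to 0.237. Kctd16 and Gabbr2 followed (adjusted p = 0.419 and 0.65). Of 5 chloride transporter and channel genes, which set the force that GABA-A receptors work with, 0 passed in edgeR, DESeq2 or limma-voom, 2 were higher at an unadjusted p under 0.05 in edgeR, and the median was 0.14. Slc12a2, which loads chloride, was at 164.6 CPM in KO and 149.2 CPM in WT (adjusted p = 0.227). Clcn2, a chloride channel gene, had an adjusted p of 0.442.

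Markers of other cell types were less even. Of 8 Purkinje cell markers, 2 rose in edgeR, Pcp2 and Car8 (adjusted p = 0.0261 and 0.0371). Over all genes tested 0.784% rose and 0.872% fell. In DESeq2 5 of the 8 were higher and in limma-voom 2, where these tools called 3.08% and 1.71% of all genes. By edgeR 6 were higher at an unadjusted p under 0.05, which 17.6% of all genes had in either direction. The summed level of the 8 was 6667, 6723 and 6893 CPM in KO and 5909, 5398 and 5581 CPM in WT, with groups that did not overlap. Without WT replicate 1, 6 of the 8 were higher, in a fit that called 10.5% of all genes. Without WT replicate 2, 1 of the 8 was higher, in a fit with 58 higher genes in all. Without any 1 of the KO libraries 0 were, in fits with 28 to 43 higher genes in all. Of 8 markers of molecular layer interneurons and Golgi cells, 1 fell, the glycine transporter gene Slc6a5 (26.1 CPM in KO and 39.7 CPM in WT, adjusted p = 0.0225). Of 6 unipolar brush cell markers, 2 fell, Lmx1a and Calb2 (adjusted p = 0.0421 and 0.0366). These last 2 lists held 0 calls without any 1 of the KO libraries or without WT replicate 2. Those fits held 53 to 82 lower genes in all. Of 8 choroid plexus markers, 6 fell, Aqp1, Folr1, Kcne2, Sostdc1, Kl and Enpp2 (adjusted p = 0.00466, 0.0129, 0.0225, 0.0244, 0.0217 and 0.0139), with summed levels of 230.2, 521.4 and 780.6 CPM in KO and 1608, 2520 and 2892 CPM in WT. Without KO replicate 2, 1 of the 8 choroid plexus markers fell, in a fit with 53 lower genes in all. Without WT replicate 2 1 likewise fell, in a fit with 79 lower genes. WT replicate 1 had the lowest choroid plexus sum and the highest Gabra2 level of the 3 WT libraries. Among the KO libraries that sum ran from 230.2 to 780.6 CPM, with Gabra2 between 77.4 and 79.2 CPM. The part of any of these cell types in the subunit levels was not tested. Of 10 granule cell precursor and dividing cell markers and 8 immature granule cell markers, 0 passed in edgeR. With no adjustment, p was under 0.05 for 1 higher and 4 lower genes among the precursor markers and for 1 lower gene among the immature markers, while DESeq2 called 1 lower among the precursor markers and limma-voom 0 in either list. Those with the smallest p were Sfrp1, Atoh1 and Gli1 (adjusted p = 0.0862, 0.144 and 0.158) and Gap43, Neurod2 and Nhlh1 (adjusted p = 0.145, 0.378 and 0.382).

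The genes closest in profile were found by the root mean square (RMS) difference of centred log2 CPM over the 6 libraries, among 10282 or 10283 protein-coding genes of at least 10 CPM. For Gabra2 they were Zfhx2, a zinc finger homeobox gene (RMS difference 0.16), Abhd14b, a hydrolase gene (0.17), and the collagen gene Col27a1 (0.20), where a flat profile would have differed from Gabra2 by 0.50. Zfhx2 was at 186.1 ± 10.8 CPM in KO and 123.1 ± 32.3 CPM in WT (SD, n = 3 each, adjusted p = 0.0764), with a wide WT spread as in Gabra2. For Gabra5 they were Zcchc12 (0.24), Camkv (0.26) and Hap1 (0.29), against 0.73 for a flat profile. Hap1, which links GABA-A receptors to kinesin for their return to the membrane and is abundant in hypothalamus and brainstem, was at 51.3, 58.4 and 54.3 CPM in KO and 50.4, 54.8 and 138.1 CPM in WT. For the other 5 genes, whose profiles were flatter, the closest were Sema5a, Slc35f1 and Ptpro for Gabra3, Rwdd3, Ccdc90b and Crls1 for Gabra4, Zkscan3, Appl2 and Bclaf3 for Gabra6, Rmdn2, Fam184b and Tln1 for Gabrb2, and Usp16, Nxf1 and Psme4 for Gabrd, with RMS differences of 0.01 to 0.06.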

How the data were processed

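RNA of 6 cerebella was sequenced as paired reads of 150 bases, per the labels' protocols. The authors deposited raw counts of reads for each gene and library. They used STAR 2.7.5a and mm10/GRCm38, per the submitters' processing notes, and Ensembl release 102, per the file names. How multimapping and strand were set is not stated. The unstranded column was used, because the strand columns held 49.9% to 50.0% each way. The summary lines of reads assigned to no single gene were left out.

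Symbols, positions and exon lengths came from GENCODE M21 (GRCm38), which matched 55227 of 55487 identifiers. Groups came from the strain label. All 18237 genes past edgeR's default filter (minimum count 10, minimum total 15) were fitted with edgeR 4.0.16 (R 4.3.3). Libraries were scaled by TMM, the quasi-likelihood test was two-sided, and p values were adjusted by Benjamini and Hochberg over all genes at a threshold of 0.05. Intervals of 95% came from the log2 fold change and its SE. CPM use TMM-scaled library sizes. DESeq2 1.42.0, limma-voom (limma 3.58.1), another scaling (RLE), no filter and leaving out each library were tried. The labels tie no animal of one group to one of the other.

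The subunit genes, gene lists and tests were chosen with earlier results of these data known. The text names every listed subunit gene; from each other list the genes that passed or, where there were none, the 3 with the smallest p; and for each subunit gene the 3 protein-coding genes of at least 10 CPM closest in profile. Some genes that this rule names are not reported here. Slc6a4, Dbh, Th, Hoxb3, Hoxb5, Nts, Nfxl1, Gabrb1, Gabre, Gabrq, Gabrp and Gabrr3 are named besides, chosen after their values were seen.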

Additional observations from a re-analysis of the deposited data

How the results depend on the processing

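Of 70 refits of the 7 subunit genes, 60 kept the direction and the side of the threshold, 4 passed the threshold and 6 changed sign, none of these 6 past it. The subunit genes called were 0 in each direction, and 1 higher (Gabra2) without a filter on low counts, without WT replicate 1 and without WT replicate 3. Without the filter 1 was also lower (Gabra5), in a fit whose prior degrees of freedom were infinite, so that gene-wise spread was not allowed for, and which gave 803 higher and 820 lower genes in all. The 6 sign changes all came from leaving out 1 library, where log2 fold changes ran from -0.2441 to 0.003 for Gabra3 and from -1.2529 to 0.0278 for Gabra5 (both above 0 only without WT replicate 3), from -0.0553 to 0.1701 for Gabra6 (below 0 without KO replicate 3, WT replicate 2 or WT replicate 3) and from -0.106 to 0.017 for Gabrd (above 0 only without WT replicate 1). Over all genes, DESeq2 gave 290 higher and 272 lower, and leaving out 1 library gave 28 to 959 higher and 53 to 962 lower. Of the other GABA pathway genes 9 were called without the filter, 3 in DESeq2, 1 in limma-voom and 0 to 9 with 1 library left out. Neighbours of Gabra2 gave 2 calls without the filter and 0 to 1 with 1 library left out, refits added after the data were seen for both. For Gabra4, leaving out 1 library gave log2 fold changes of -0.3101 (without WT replicate 3) to -0.0374 (without WT replicate 1), with no call. Why the refits differed was not tested. No paired analysis was possible because the replicate numbers were given in the order of the samples and tie no animal of one group to one of the other. Counts of 40 to 149 limit the precision of Gabra5.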
